A study of Mus musculus with 27 samples.

Results

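Liver pyruvate kinase (Pklr), the glucose-responsive factor ChREBP (gene Mlxipl) and other genes of hepatic sugar use were followed in the livers of 27 pups. The list holds 9 genes, Pklr, Mlxipl, Slc2a2, Khk, Pfkfb1, Fbp1, Pck1, Txnip and Fgf21, and each is represented by the probe set of highest mean over the 27 arrays among those that the annotation pairs with a single gene. Of the 9 genes, 8 had such a probe set, 1 apiece, among 18820 genes in all, and Pfkfb1 was not analysed here. The filters on intensity and spread left 10810 genes for testing, among them 7 of the 8. Fbp1, whose interquartile range over the arrays was only 0.04 on the log2 scale, failed the filter on spread and is taken from the same model fitted to all genes. Pklr heads the list because its values in these pups were already known, and the genes were chosen by their log2 values in these same pups. The response of Pklr to the diet and its difference between the sexes are therefore described here without a test. For the other members, p-values and the counts built on them come from these same pups and are not independent support.

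The study asked how a Western-style diet of the dam (WSD) acts on the liver of her male and female pups at 2 weeks of age, while they were still suckling, compared with a low fat diet (LFD). The groups were 6 males (m-WS) and 6 females (f-WS) of WSD dams, and 6 males (m-LF) and 9 females (f-LF) of LFD dams, all of strain C57BL/6J, with total liver RNA on 1 Affymetrix Mouse Gene 1.1 ST array per pup. The WSD supplied 45% of its energy as fat, 20% as protein and 35% as carbohydrate, with 196.5 mg cholesterol per kg and 4.73 kcal/g, and the LFD 10%, 20% and 70%, with 18.0 mg per kg and 3.85 kcal/g. Dams ate their diet for 6 weeks before mating and throughout pregnancy and lactation, sires were on the control diet, and litters were evened out to between 5 and 7 pups. The sources used here do not say which pups were littermates, so the p-values measure the spread between pups taken as independent.

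In the hepatocyte, glucose passes through the transporter GLUT2, is phosphorylated and runs down glycolysis to pyruvate, the last step being catalysed by the enzyme that Pklr encodes. Fructose joins further down, after phosphorylation by ketohexokinase (Khk) and triokinase (Tkfc), and gluconeogenesis runs the other way through PEPCK (Pck1) and fructose-1,6-bisphosphatase (Fbp1). ChREBP, together with its partner Mlx, senses sugar phosphates and binds carbohydrate response elements, pairs of E-box-like half-sites, in the promoters of genes such as Pklr and Txnip. Milk is rich in fat and poor in starch, and liver pyruvate kinase is known in rodents as a gene that is low in suckling and rises once carbohydrate enters the diet at weaning.

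To show where such elements lie in these genes, the windows of 250 bases before to 50 bases after each RefSeq transcript start (build GRCm38.p6) were searched on both strands. All 9 genes had at least 1 window, 14 in all. A pair of half-sites, each reading CACGNG or its reverse complement CNCGTG and set 5 bases apart, was found in 2 of the 14 windows, and in 27 of 32851 windows of all genes (0.0822%). The palindrome CACGTG was found in 3 of the 14 windows, those of Mlxipl, Khk and Fgf21, and in 7.15% of all windows. A pair may hold CACGTG as one of its parts. The first window below belongs to the downstream start of Pklr, which gives the liver form of the enzyme, and carries its pair in capitals from base -170, in the window chr3:89136373-89136672 on the plus strand. The upstream start of Pklr, which gives the form of red blood cells, had neither motif in its window chr3:89135892-89136191. The second is Txnip, with its pair in capitals from base -85 in chr3:96557707-96558006 (plus strand).
Pklr: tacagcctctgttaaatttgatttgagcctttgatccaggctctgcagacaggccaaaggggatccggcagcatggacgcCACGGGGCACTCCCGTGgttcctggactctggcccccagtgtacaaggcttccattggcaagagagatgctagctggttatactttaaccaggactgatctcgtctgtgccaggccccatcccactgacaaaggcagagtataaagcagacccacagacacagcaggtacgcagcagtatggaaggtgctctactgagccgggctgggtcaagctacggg
Txnip: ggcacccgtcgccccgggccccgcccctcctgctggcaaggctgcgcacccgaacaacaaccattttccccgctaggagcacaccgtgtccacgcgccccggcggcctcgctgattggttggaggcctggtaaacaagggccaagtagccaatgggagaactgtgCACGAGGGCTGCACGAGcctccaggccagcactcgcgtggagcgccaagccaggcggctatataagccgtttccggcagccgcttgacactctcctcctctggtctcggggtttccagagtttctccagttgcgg

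The pair of Pklr reads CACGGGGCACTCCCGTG and that of Txnip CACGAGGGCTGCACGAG. The third window is the upstream start of Mlxipl itself, chr5:135089640-135089939 (plus strand), where CACGTG stands in capitals from base -98. The fourth is Slc2a2, the gene of GLUT2, in chr3:28697653-28697952 (plus strand), shown because its signal moved in the males while its window held neither motif.
Mlxipl: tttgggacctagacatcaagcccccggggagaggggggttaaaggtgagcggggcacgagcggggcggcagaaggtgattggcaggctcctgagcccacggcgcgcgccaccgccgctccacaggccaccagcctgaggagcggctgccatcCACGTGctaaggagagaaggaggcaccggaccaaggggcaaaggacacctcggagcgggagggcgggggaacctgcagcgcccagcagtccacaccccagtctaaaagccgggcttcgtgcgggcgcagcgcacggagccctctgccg
Slc2a2: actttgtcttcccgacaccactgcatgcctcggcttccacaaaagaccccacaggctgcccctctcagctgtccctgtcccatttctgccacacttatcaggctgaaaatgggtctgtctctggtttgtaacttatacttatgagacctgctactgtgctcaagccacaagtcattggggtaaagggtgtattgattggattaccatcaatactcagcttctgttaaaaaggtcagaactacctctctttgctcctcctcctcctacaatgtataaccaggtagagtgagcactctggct

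These letters describe the windows and say nothing of binding in these pups. The array gave 1 value per gene and does not separate the transcript starts of Pklr or Mlxipl. By RefSeq, Pklr spans chr3:89136122-89146815 and Mlxipl chr5:135089890-135139768.

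The values are log2 intensities, and array medians lay between 5.34 and 5.43. The summed linear signal of 7 hepatocyte markers, on the log2 scale, was 15.45 to 15.53 in m-WS, 15.37 to 15.53 in m-LF, 15.42 to 15.53 in f-WS and 15.44 to 15.53 in f-LF, so the tissue label was borne out alike in all groups. In males 3.02% of all genes tested rose and 2.6% fell at p 0.01 (limma). Of the 8 neutrophil and myeloid precursor markers, 3 rose in males at p 0.01 and none fell, and of 4 tested B cell markers 3 rose. Their summed signals were 9.51 to 10.26 in m-WS against 8.48 to 10.41 in m-LF for the first list, and 9.01 to 9.72 against 8.14 to 9.58 for the second, in which Vpreb1 stayed below an intensity of 20 on all arrays. The part of blood cells in the values below was not tested, and in whole liver fewer cells of a type and less RNA per cell cannot be told apart. The red cell markers, of interest because red cells use the other Pklr start, summed to 10.22 to 10.60 in m-WS and 10.37 to 10.66 in m-LF, with none of 5 at p 0.01 in males (limma) and 1 under p 0.05. Pups m-LF6 and m-WS1 stood apart by a signal of Xist, the RNA of the silenced X chromosome, of 9.30 and 7.92, against 3.25 to 4.50 in the other males and at least 11.67 in the females. In limma at p 0.01, 2 of 6 endothelial markers (Vwf and Clec4g) and 2 of 5 stellate cell and fibroblast markers (Lrat and Reln) fell in males. None of either list fell in females. The other 3 stellate cell and fibroblast markers had positive male changes, from 0.07 to 0.22, and the list median was 0.07. Of the 6 endothelial markers, 2 had positive male changes. None of 6 Kupffer cell, 2 hepatocyte or 2 pancreatic acinus markers tested passed in either sex. In females 1 red cell marker, Tfrc, rose, where 3.6% of all genes tested did.

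Pklr was lower in every m-WS pup than in every m-LF pup, which held for 0.537% of all genes tested. Pklr in m-WS also lay below every f-WS pup, which held for 0.749% of genes. It lay below every f-LF pup as well, for which no share was counted. In replicate order its log2 values were 9.55, 9.51, 9.75, 9.78, 9.70 and 9.78 in m-WS and 10.11, 10.05, 10.13, 10.16, 10.16 and 9.96 in m-LF. The lowest m-LF pup, m-LF6, is one of the pups with an Xist signal. The male change, WSD minus LFD, was -0.42 on the log2 scale (SE 0.07), or -25.2% on the linear scale, and it was -0.42 without m-LF6 and m-WS1. In females the values were 10.01, 10.30, 10.09, 10.13, 9.90 and 9.91 in f-WS, and 10.00, 10.20, 10.05, 9.86, 9.94, 10.18, 10.10, 9.84 and 10.09 in f-LF. These groups overlapped from 9.90 to 10.20, and the change was 0.03 (SE 0.06). The male change minus the female change was -0.45 (SE 0.09). On LFD the males exceeded the females by 0.07 (SE 0.06), whereas on WSD the difference of males minus females was -0.38 (SE 0.07).

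**Figure D1:**
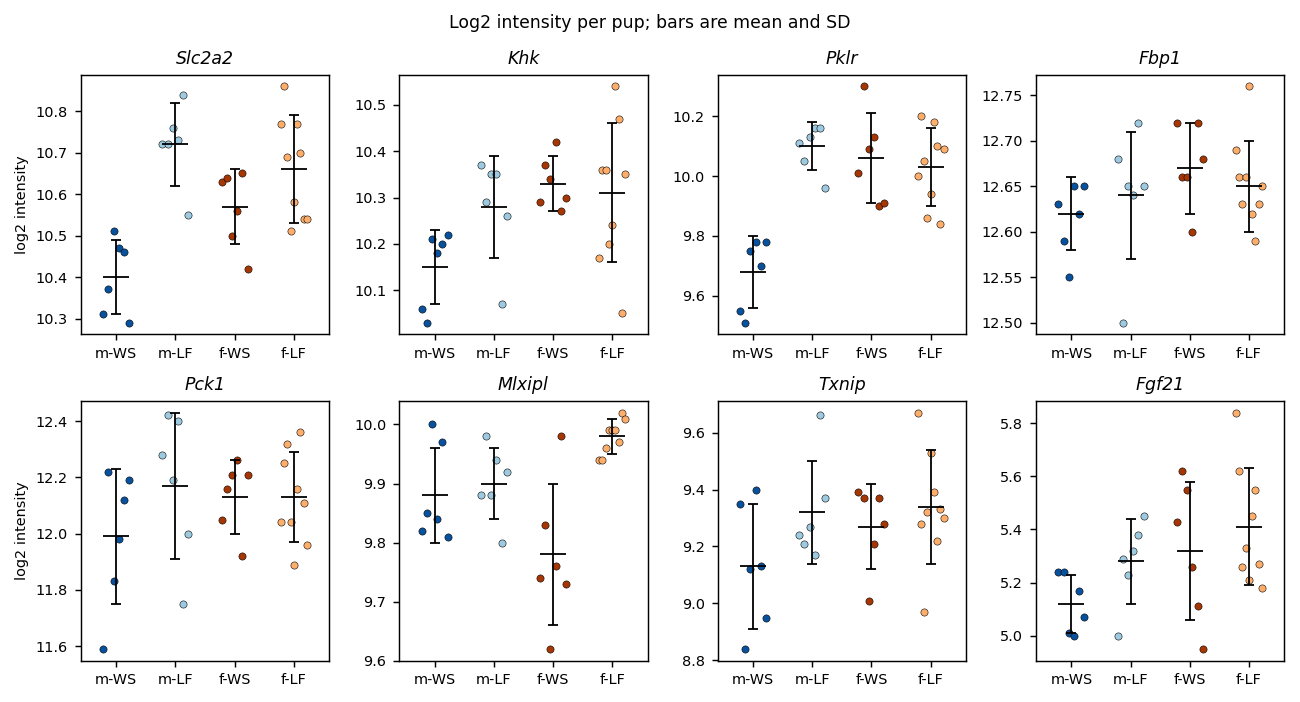
Log2 intensity of the 8 measured genes in each pup (points) of m-WS, m-LF, f-WS and f-LF, with mean and SD as bars (n = 6, 6, 6 and 9); each panel has its own axis. The m-WS pups lie between 9.51 and 9.78 for Pklr, below all other pups, and the f-WS pups reach down to 9.62 for Mlxipl.

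The sugar transporter and the fructose kinases were the next genes examined. Slc2a2 (chr3:28697903-28728361), which encodes GLUT2, had 10.31, 10.37, 10.51, 10.47, 10.46 and 10.29 in m-WS, against 10.72, 10.72, 10.76, 10.73, 10.84 and 10.55 in m-LF. As for Pklr, all 6 m-WS pups lay below all m-LF pups, which held for 0.537% of all genes tested. Slc2a2 fell in males by 0.32 (SE 0.06, adjusted p = 0.0155, limma), or by 20.0% on the linear scale, and the change was -0.34 without m-LF6 and m-WS1. In females it had a lowest, median and highest value of 10.42, 10.60 and 10.65 in f-WS and 10.51, 10.69 and 10.86 in f-LF. All 6 f-WS pups lay below the median of f-LF, but the groups overlapped, and the change of -0.10 (SE 0.06, adjusted p = 0.444) did not pass. The male change minus the female change was -0.23 (SE 0.08, adjusted p = 0.394), and its unadjusted p of 0.0109 just missed the threshold of 0.01, which 15 of 47 other settings reached.

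Khk, the first enzyme of fructose use, lay lower in m-WS without passing the test. Its lowest, median and highest values were 10.03, 10.19 and 10.22 in m-WS and 10.07, 10.32 and 10.37 in m-LF, where the low value of 10.07 came from m-LF5 alone. The male change was -0.14 (SE 0.07, adjusted p = 0.336). Without m-LF5 it was -0.18 and reached p 0.01 (adjusted p = 0.186), as it did without array name number 50, to which m-LF5 belongs (-0.19, adjusted p = 0.0759); over all settings the adjusted p lay between 0.0759 and 0.998. In females Khk ran from 10.27 to 10.42 in f-WS and from 10.05 to 10.54 in f-LF, with a change of 0.03 (SE 0.06, adjusted p = 0.886). On WSD all 6 males lay below all 6 females, which held for 0.749% of the genes tested (male minus female -0.18, SE 0.07, adjusted p = 0.279, unadjusted p = 0.0083), while on LFD the difference was -0.02 (SE 0.06, adjusted p = 0.955).

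Tkfc, the triokinase that acts after Khk and comes from the list of fructose, galactose and sorbitol genes, separated the males as Slc2a2 did, and of the 5 tested genes of that list it alone fell in males, while 1 rose in females. Its lowest, median and highest values were 10.16, 10.22 and 10.31 in m-WS and 10.43, 10.55 and 10.69 in m-LF. No pup of m-WS reached the m-LF range, as was the case for 0.537% of all genes tested. Tkfc fell in males by 0.34 (SE 0.07, adjusted p = 0.0309), against a change of 0.01 in females (SE 0.07, adjusted p = 0.96), where f-WS ran from 10.30 to 10.79 and f-LF from 10.18 to 10.70. The difference of the male and female changes was -0.35 (SE 0.10, adjusted p = 0.366, unadjusted p = 0.00134).

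The enzymes of gluconeogenesis among the 9 genes did not pass the test in either sex. Fbp1 (chr13:62864753-62888298) lay within 12.55 to 12.65 in m-WS and 12.50 to 12.72 in m-LF, where m-LF2 was alone at 12.50, and its change was -0.02 (SE 0.03, adjusted p = 0.886). In females it ran from 12.60 to 12.72 in f-WS and from 12.59 to 12.76 in f-LF (change 0.02, SE 0.03, adjusted p = 0.859). Pck1 (chr2:173153073-173159274), which encodes PEPCK and responds to glucagon and insulin, varied more within groups. Its lowest, median and highest values were 11.59, 12.05 and 12.22 in m-WS and 11.75, 12.24 and 12.42 in m-LF. All 6 m-WS pups lay below the m-LF median, yet the male change of -0.18 (SE 0.11, adjusted p = 0.456) was within the spread between pups. Without array name number 50, which holds m-LF5 and m-LF6, the lower pair of m-LF, it was -0.33 and reached p 0.01 (adjusted p = 0.0625, from 0.0625 to 0.998 over all settings). In females the change was 0.01 (SE 0.10, adjusted p = 0.986), with 11.92 to 12.26 in f-WS and 11.89 to 12.36 in f-LF.

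Mlxipl, the gene of ChREBP, was lower in f-WS, whereas its change in males did not pass the test. In f-WS its values were 9.74, 9.83, 9.62, 9.76, 9.98 and 9.73, against 9.94, 9.94, 9.96, 9.99, 9.99, 9.99, 9.97, 10.02 and 10.01 in f-LF. The 9 f-LF pups were tightly grouped (SD 0.03), and 5 of 6 f-WS pups lay below all of them, with f-WS5 at 9.98 as the exception. Mlxipl fell in females by 0.20 (SE 0.04, adjusted p = 0.0294), or by 13.0% on the linear scale. In males the lowest, median and highest values were 9.81, 9.85 and 10.00 in m-WS and 9.80, 9.90 and 9.98 in m-LF, which overlapped almost wholly (change -0.02, SE 0.05, adjusted p = 0.91). The male change minus the female change was 0.18 (SE 0.06, adjusted p = 0.391, unadjusted p = 0.00786), and 23 of 47 other settings did not reach p 0.01. On LFD, 4 of 6 m-LF pups lay below all f-LF pups (male minus female -0.08, SE 0.04, adjusted p = 0.774). On WSD the difference of males minus females was 0.10 (SE 0.05, adjusted p = 0.41). Mlx, the partner of ChREBP, had a change of -0.05 in both sexes (SE 0.06, adjusted p = 0.817 in males and 0.762 in females).

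Txnip and Fgf21, one a brake on glucose uptake and the other a hormone that the liver secretes, are both known to respond to ChREBP. Txnip (chr3:96557957-96561857) had a lowest, median and highest value of 8.84, 9.13 and 9.40 in m-WS and 9.17, 9.25 and 9.66 in m-LF. Although 4 of 6 m-WS pups lay below all of m-LF, the other 2 lay above its median, and the change was -0.19 (SE 0.10, adjusted p = 0.411). In females it was -0.07 (SE 0.09, adjusted p = 0.804), with 9.01 to 9.39 in f-WS and 8.97 to 9.67 in f-LF. Fgf21 (chr7:45613890-45615490) gave a low signal, its mean of 5.30 over all arrays lying at the 42.9th percentile of genes. Its lowest, median and highest values were 5.00, 5.12 and 5.24 in m-WS and 5.00, 5.31 and 5.45 in m-LF (change -0.16, SE 0.11, adjusted p = 0.551). In females they were 4.95, 5.35 and 5.62 in f-WS and 5.18, 5.33 and 5.84 in f-LF (change -0.09, SE 0.10, adjusted p = 0.735), and the ranges of both sexes overlapped widely. Of the 4 tested FGF21 receptors and co-receptor, none passed p 0.01 in limma, in males or in females, or p 0.05 unadjusted.

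**Figure D2:**
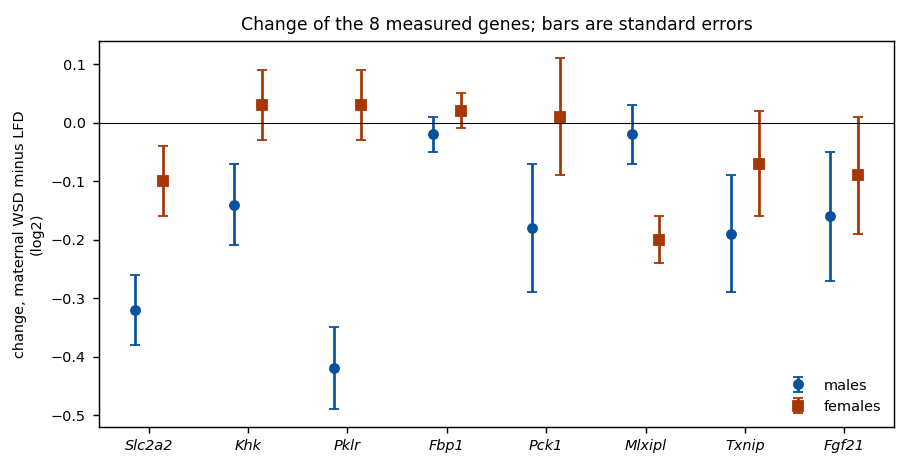
Change of each of the 8 measured genes on the log2 scale, maternal WSD minus LFD, in males (circles) and females (squares), with standard errors from limma as bars. Pklr at -0.42 and Slc2a2 at -0.32 stand lowest in males, while in females Mlxipl stands lowest at -0.20.

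Counted together without Pklr, 1 of 6 tested members passed p 0.01 in males, where 5.62% of all genes tested did, and 1 of 6 in females, where 5.19% did. For the difference between the sexes the count was 1 of 6, against 2.5% of all genes, and no gene of the 10810 had an adjusted p under 0.05 (1060 had an unadjusted p under 0.05). Counts this small do not set the members apart from other genes. The median change of the 6 was -0.17 in males and -0.08 in females, beside 0.01 over all genes in each sex, and all 6 changes were negative in males. Between the sexes, on WSD 1 of 6 passed (Khk, 3.35% of all genes), and on LFD none of 6 did in limma at p 0.01 or p 0.05, where 1.37% of all genes passed p 0.01.

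Without m-LF6 and m-WS1, the males with an Xist signal, 724 genes passed p 0.01 in males in place of 608, and 364 for the difference between the sexes in place of 270. Besides the values given above for Pklr and Slc2a2, the male change was then -0.12 for Khk, -0.14 for Pck1, -0.22 for Txnip, -0.15 for Fgf21 and 0.00 for Mlxipl, none of them at p 0.01 (adjusted p from 0.335 to 0.988, limma). The male change minus the female change was 0.20 for Mlxipl, and for Slc2a2 it was -0.24 and reached p 0.01 (adjusted p = 0.28 for both). Among the other pathway genes, the male change without both pups was -0.37 for Tkfc, -0.30 for Tm6sf2, 0.40 for Usf1, -0.33 for Ldhb, -0.25 for Pgm2, -0.22 for Slc16a7 and -0.56 for Pdk4, each at p 0.01 as with all pups, and the difference between the sexes of Arrdc4 (-0.38) no longer was.

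Each array name also holds a number of undefined meaning, 39, 40 or 48 on WSD and 37, 49 or 50 on LFD, so each number lies within 1 maternal diet. Of the WSD numbers, 40 and 48 held pups of both sexes. In number 40 Pklr was 9.55 and 9.51 in the m-WS pups and 10.09 and 10.13 in the f-WS pups. In number 48 it lay between 9.70 and 9.78 in 4 m-WS pups and was 9.90 and 9.91 in the f-WS pups. Within both numbers, then, every male had less Pklr than every female. The male change of Pklr was -0.34 without number 40 and -0.57 without number 48, which leaves only 2 m-WS pups, and -0.41 with the number as a random block. Slc2a2 had a male change of -0.29, -0.38 and -0.32 in these settings (adjusted p = 0.0783, 0.204 and 0.0507, from 0.00231 to 0.998 over all settings). For Mlxipl the female change was -0.16 without number 40, -0.24 without number 48 and -0.20 with the random block (adjusted p = 0.25, 0.02 and 0.0742, from 0.00596 to 0.591 over all settings), and it passed p 0.01 in all 48 other settings. The names also begin with G073 or G074, each of which holds all groups. Within G073 alone the male change was -0.46 for Pklr and -0.35 for Slc2a2, and within G074 alone, with 3 m-WS and 2 m-LF pups, it was -0.33 and -0.25, the Slc2a2 change then missing the threshold (adjusted p = 0.998).

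**Figure D3:**
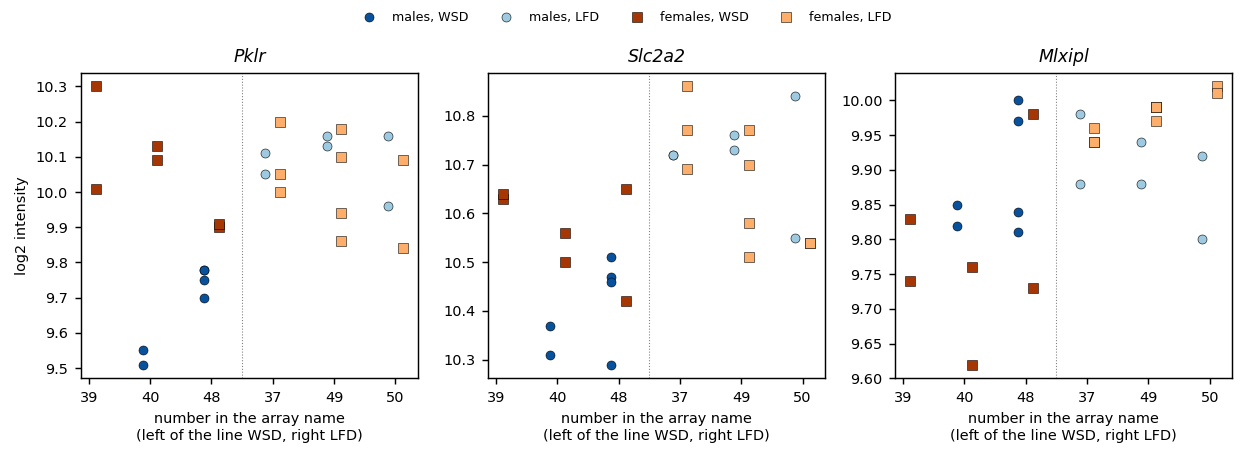
Log2 intensity of Pklr, Slc2a2 and Mlxipl in each pup by the number in its array name, with WSD numbers left and LFD numbers right of the dotted line, males as circles and females as squares. In numbers 40 and 48 the m-WS pups lie below the f-WS pups for Pklr (9.51 to 9.78 against 9.90 to 10.13).

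The wider pathway was read from 9 lists of 127 genes, of which 112 had a probe set of their own and 90 were tested. In males 1 of the 90 rose and 6 fell (7.78% in all), where 3.02% of all genes tested rose, 2.6% fell and 5.62% changed. In females 4 rose and none fell (4.44%), where 3.6% of all genes rose, 1.59% fell and 5.19% changed. The medians over the 90 genes were -0.02 in males and 0.00 in females, close to the 0.01 over all genes in each sex. For the difference between the sexes 2 of the 90 were positive and 4 negative at p 0.01 (6.67%), where 2.5% of all genes passed. The median there was -0.04, beside -0.01 over all genes, and no gene had an adjusted p under 0.05. The lists were chosen with earlier results of these data known, so these counts are not independent support. Of the 17 tested glycolysis genes, 1 fell in males and none passed in females, at p 0.01 or p 0.05. It was Ldhb, a subunit of lactate dehydrogenase, at 5.22 ± 0.13 in m-WS and 5.48 ± 0.18 in m-LF (SD, n = 6 each), a change of -0.26 (adjusted p = 0.155) whose call was lost in 14 of 48 other settings. The Ldhb signal was low, near the array medians of 5.34 to 5.43. Ldha, another subunit, averaged 12.52 in m-WS and 12.58 in m-LF, a change of -0.06 (SE 0.05, adjusted p = 0.695). Pkm, the pyruvate kinase of other tissues, had a change of 0.02 in males (SE 0.09, adjusted p = 0.954) and -0.05 in females (SE 0.08, adjusted p = 0.854). None of the 9 tested gluconeogenesis genes passed p 0.01 in limma in either sex, with 2 under p 0.05 in males and 0 in females, and G6pc, which releases free glucose, had a change of -0.16 in males (SE 0.09, adjusted p = 0.452) and 0.06 in females (SE 0.09, adjusted p = 0.824). Of the 12 glycogen genes, 1 fell in males, the phosphoglucomutase Pgm2, by 0.18 (SE 0.06, adjusted p = 0.158, lost in 15 of 48 settings), and none passed p 0.01 or p 0.05 in females.

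In females the genes that rose came from the lists of the pentose phosphate pathway, of fructose, galactose and sorbitol, and of pyruvate. The latter lists also held genes that fell in males. Of the 5 tested pentose phosphate genes, 2 rose in females and none passed in males (1 was under p 0.05). Tkt, transketolase, had a lowest, median and highest value of 7.34, 7.51 and 7.58 in f-WS and 7.12, 7.19 and 7.33 in f-LF, so that these groups did not overlap, as was the case for 0.342% of the genes tested, all f-WS pups being higher. It rose in females by 0.27 (SE 0.05, adjusted p = 0.0138), and in males its change was 0.14 (SE 0.06, adjusted p = 0.235). Taldo1, transaldolase, rose in females by 0.20 (SE 0.07, adjusted p = 0.172, lost in 20 of 48 settings), and in males its change was -0.15 (SE 0.08, adjusted p = 0.379), a difference of -0.35 (SE 0.10, adjusted p = 0.366, unadjusted p = 0.002). Pgm1, a phosphoglucomutase, rose in females by 0.14 (SE 0.04, adjusted p = 0.103).

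Of the 12 tested genes that govern the fate of pyruvate, 2 fell in males and 1 rose in females. Those that fell in males were Slc16a7 (-0.18, SE 0.06, adjusted p = 0.163, lost in 18 of 48 settings), a monocarboxylate transporter, and Pdk4 (-0.41, SE 0.15, adjusted p = 0.175), a kinase that switches off pyruvate dehydrogenase. Pdk4 was 7.92 ± 0.33 in m-WS and 8.33 ± 0.27 in m-LF (SD, n = 6 each), and its call was lost in 30 of 48 other settings. In females it was Mpc1 (0.14, SE 0.05, adjusted p = 0.168, lost in 18 of 48 settings), which carries pyruvate into mitochondria. For the difference between the sexes Pdk2, another such kinase, stood at 0.37 (SE 0.11, adjusted p = 0.366) and Slc16a1, a lactate transporter, at -0.31 (SE 0.10, adjusted p = 0.366). Pdk2 averaged 9.55 in m-WS, 9.37 in m-LF, 9.39 in f-WS and 9.59 in f-LF, and neither of its changes within a sex passed.

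Among 15 tested partners and targets of ChREBP, 1 fell in males and none passed in females. At an unadjusted p under 0.05 there were 7 of 15 in males, 3 in females and 6 for the difference between the sexes, beside 1546, 1564 and 1060 of all 10810 genes, and none of the 15 had an adjusted p under 0.05. It was Tm6sf2, a lipid-handling protein of the liver, at 10.33 ± 0.10 in m-WS and 10.59 ± 0.20 in m-LF (SD, n = 6 each), a change of -0.26 (SE 0.07, adjusted p = 0.0758). The changes of the list ran from -0.80 (Rgs16) to 0.63 (Scd1) in males, neither of them past the threshold, and 11 of 15 were negative, with a median of -0.15. In females the median was 0.02 and 7 of 15 were negative. Arrdc4, a relative of Txnip, had a difference between the sexes of -0.37 (SE 0.13, adjusted p = 0.391), lost in 27 of 47 other settings. Of 11 tested regulators of Pklr and Pck1, 1 rose in males, Usf1, a factor that binds E-boxes. Its lowest, median and highest values were 6.00, 6.27 and 6.33 in m-WS and 5.50, 5.87 and 6.06 in m-LF, a rise of 0.36 (SE 0.08, adjusted p = 0.033), against 0.00 in females (SE 0.07, adjusted p = 0.994). Hnf4a had a change of -0.02 in males (SE 0.06, adjusted p = 0.92) and 0.00 in females (SE 0.05, adjusted p = 0.997).

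**Figure D4:**
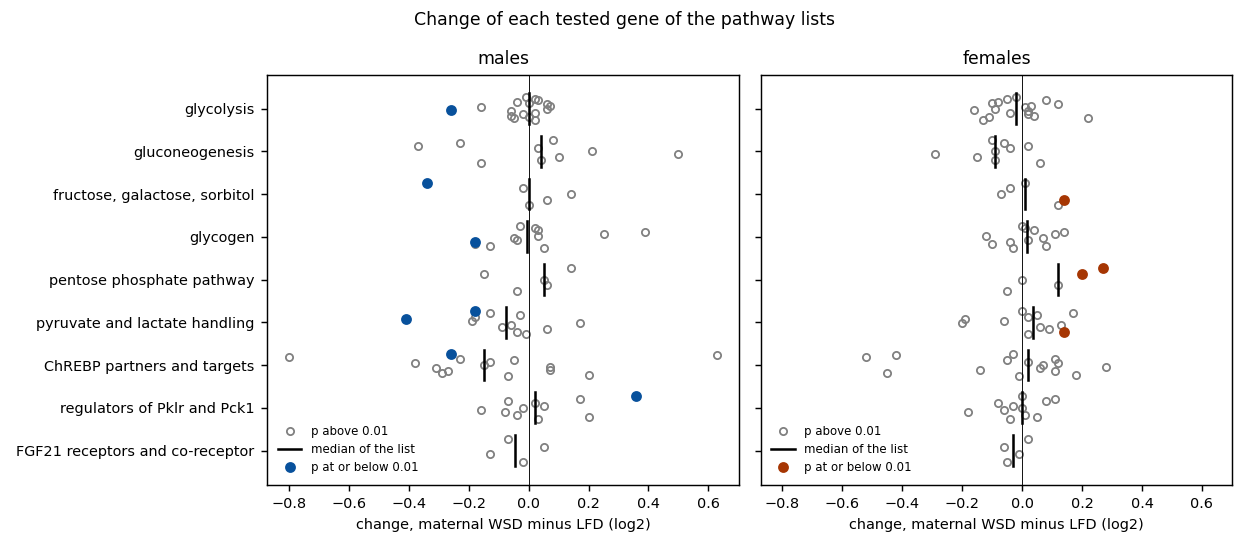
Change of each of the 90 tested genes of the 9 pathway lists (circles, log2 scale, maternal WSD minus LFD) in males and in females, with filled circles at p 0.01 or below and the median of each list as a bar. Filled circles lie at or below -0.18 in males, apart from Usf1 at 0.36, and between 0.14 and 0.27 in females.

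Over the 27 pups, the genes whose signal ran most like that of Pklr were Glul (r = 0.91), Rspo3 (0.89), Nxpe2 (0.89), Tkfc (0.88) and Plxnc1 (0.88), by Pearson's r among the 10810 genes. Glul encodes glutamine synthetase and Rspo3 a ligand that strengthens Wnt signals. With each group's mean taken off, the first 5 were Cpox (0.89), Rspo3 (0.85), Glul (0.84), Ccnd1 (0.82) and Cdh13 (0.82). These are descriptions of 27 arrays that share 1 normalization, and the first set also reflects the low m-WS values that all 5 genes share with Pklr. Glul averaged 10.85 in m-WS and 11.52 in m-LF, and 11.45 in f-WS and 11.44 in f-LF, and Rspo3 6.82 and 7.23, and 7.22 and 7.18. Of the members, Slc2a2 followed Pklr with r = 0.79 (place 29) and Khk with 0.73 (place 70). For Fgf21 r was 0.47, for Pck1 0.42 and for Txnip 0.30, and Mlxipl had an r of -0.03. With group means taken off, r was 0.59 for Slc2a2, 0.65 for Khk and -0.12 for Mlxipl.

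**Figure D5:**
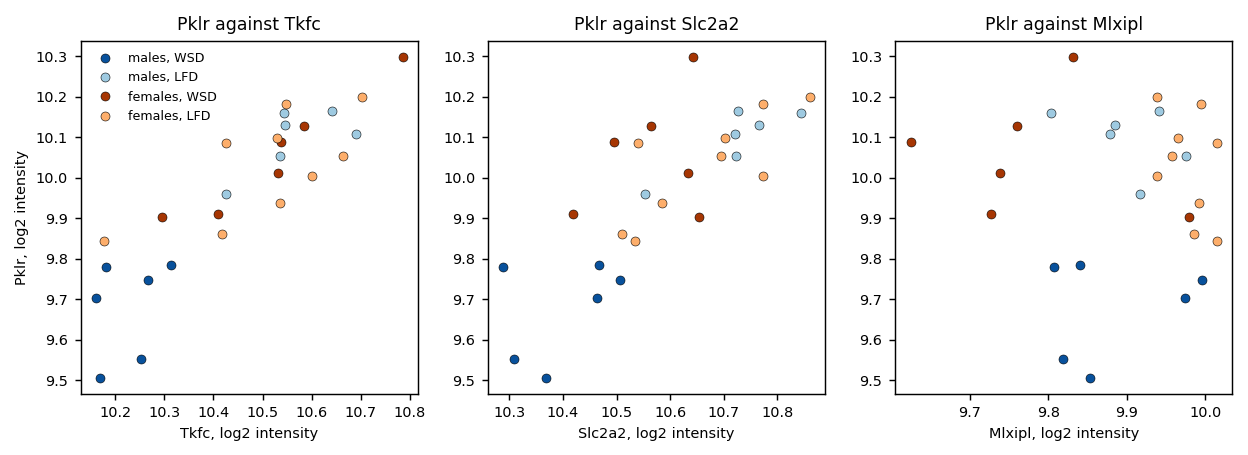
Log2 intensity of Pklr against that of Tkfc, Slc2a2 and Mlxipl in the 27 pups, coloured by group. Pklr rises with Tkfc (r = 0.88) and Slc2a2 (0.79) with the 6 m-WS pups at the lower left, while against Mlxipl r is -0.03.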

How the data were processed

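Liver RNA of 27 pups was measured on 1 array per pup. The deposited table gives 1 log2 intensity for each probe set and pup, which the authors obtained with RMA (version not given in the sources used here). RMA normalizes by quantiles, so values are relative to the other genes of an array. The log2 scale follows from the values, 1.51 to 13.58. The table holds 35556 probe sets of the manufacturer's design, of which 21218 have a single gene, 1881 several and 12457 none. The redefined probe sets of the methods are not used here.

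After the filters of the methods, 13279 genes reached an intensity of 20 on 4 or more arrays, and the 10810 of these whose interquartile range was 0.1 or more were tested. All 27 arrays entered 1 model of 4 group means (limma 3.58.1 in R 4.3.3, eBayes with an intensity trend). The words rose, fell and changed stand for p 0.01, the threshold of the methods, and adjusted p-values follow Benjamini and Hochberg across the 10810 genes. The fit was tested on simulated data. Changes are WSD minus LFD unless stated, with standard errors from limma. The number of arrays limits the precision, and the labels give no extraction or scan batch.

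The members, the 9 pathway lists and the 8 marker lists were chosen with earlier results of these data known. Named are the 9 members, up to 3 genes of smallest p per list and comparison among those at p 0.01, the 5 genes most like Pklr by r, before and after taking off group means, and markers where pups stand apart. Mlx, Pkm, Ldha, G6pc, Mdh1, Mdh2, Pcx, Fbp2, Got2, Hnf4a, Rgs16 and Scd1 are outside this rule, picked with their values already in view. Listed genes with no single-gene probe set were not analysed here. Windows come from RefSeq GRCm38.p6, and figures were drawn with matplotlib 3.10.9. The replicate numbers of the titles do not pair the pups. Alternatives were other filters, normalizations and prior variances, probe sets averaged per gene, array weights, each sex alone, blocks and subsets by array name, the replicate block, and leaving out each pup.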

Additional observations from a re-analysis of the deposited data

Results flagged for a closer look

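Of 36 groups examined (the 8 measured genes and Xist in each of the 4 groups), 4 held a pup whose gap to the rest was large against the range of its group, where chance gives about 1 in 20. Khk was 10.07 in m-LF5, against 10.26 to 10.37 in the other m-LF pups. Fbp1 was 12.50 in m-LF2, against 12.64 to 12.72. Xist was 7.92 in m-WS1, against 3.40 to 4.50 in the other m-WS pups, and 9.30 in m-LF6, against 3.25 to 4.30 in the other m-LF pups.

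Of the members other than Pklr, Mlxipl differed between the sexes in its response to maternal WSD. Its male change minus its female change was 0.18 at an unadjusted p of 0.00786 in limma (adjusted p = 0.391, from 0.121 to 0.978 over all settings), with 5 of 6 f-WS pups below all f-LF pups and 1 of 6 m-WS pups above all m-LF pups.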

How the results depend on the processing

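Across 48 other settings the male change of Pklr lay between -0.57 and -0.33, that of Slc2a2 between -0.38 and -0.25 and the female change of Mlxipl between -0.25 and -0.16, and no result changed direction among those called. Without number 48, which leaves 2 m-WS pups, Pklr was at -0.57 in males, and arrays of prefix G074 alone gave -0.33 for Pklr and -0.25 for Slc2a2. With single pups left out, Pklr ranged from -0.45 to -0.38, Slc2a2 from -0.36 to -0.30 and Mlxipl in females from -0.24 to -0.17.

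Counts at p 0.01 moved more; the cause was not tested. In males the 608 genes became 242 when arrays that shared a number and a sex were averaged, 400, 324, 349 and 965 without numbers 37, 48, 49 and 50, and 377 and 74 within prefixes G073 and G074. Without single pups the count lay between 487 and 812. In females the 561 genes became 175 when averaged, 326 and 169 without numbers 40 and 49, and 199 and 208 within the prefixes, and lay between 377 and 633 without single pups. For the difference between the sexes the 270 genes became 99 when averaged, 103 and 159 without numbers 40 and 49, and 93 and 72 within the prefixes, and lay between 196 and 398 without single pups. Between the sexes on LFD the 148 genes became 223 without filters, 53 when averaged, 72 and 343 without numbers 49 and 50, 38 within G074 and 240 without m-LF6 and m-WS1, and lay between 85 (without m-LF4; 87 without f-LF4) and 252 (without m-LF6). Between the sexes on WSD the 362 genes became 143 when averaged, 186 and 186 without numbers 39 and 40, and 82 within G073, and lay between 242 and 514 without single pups.

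Of the members other than Pklr, 1 was at p 0.01 in males, 3 without number 50 (Khk and Pck1 as well), 0 within G074, and 1 to 2 without single pups (2 without m-LF5). In females the count was 1 in all 48 settings. For the difference the count was 1; it was 0 with no trend of the prior variance, when averaged, without numbers 39, 40, 49 or 50, within either prefix and with the replicate block, and 2 with fewer or no filters, with the number as a random block, without number 37 and without m-LF6 and m-WS1 together. Without single pups it lay between 0 and 2, and was 0 without m-LF1, m-LF3, m-LF5, f-LF5, f-LF8, f-LF9, f-WS1 or f-WS4 and 2 without m-LF6, m-WS4, f-LF1 or f-LF2. Of the 90 list genes, 7 were at p 0.01 in males, 3 with the number as a random block, 3 when averaged, 3 without number 48, 2 within G073 and 2 within G074, and 4 to 9 without single pups (4 without m-WS5 or m-WS6). In females 4 were, 1 when averaged, 7, 8 and 2 without numbers 39, 48 and 49 and 2 within G073, and 2 to 6 without single pups (2 without f-LF5 or f-LF8). For the difference 6 were, 3 when averaged, 3 and 2 without numbers 40 and 49, 1 within G073 and 3 within G074, and 5 to 7 without single pups.

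The pups share replicate numbers in their titles, but same-numbered pups of the 2 diets had deviations that correlated between -0.26 and 0.26, so that the numbers pair nothing that these data show. With the replicate block, 651 genes were at p 0.01 in males and 566 in females; the male change was -0.42 for Pklr and -0.32 for Slc2a2, and the female change of Mlxipl was -0.19. By Spearman's rho, 4 of the 5 genes most like Pklr were shared, and 3 of 5 after group means were taken off. Each diet had only 3 numbers of the array names, and the m-WS pups came only from numbers 40 and 48. The number of pups limits what changes can be seen.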
